A study of Mus musculus with 45 samples.

Results

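Neuropeptide precursors are the secreted proteins from which neurons cut their peptide transmitters, and 10 of their genes (Sst, Npy, Penk, Pdyn, Adcyap1, Vip, Cck, Tac1, Crh and Nts) were followed through 9 conditions of cultured mouse hippocampal neurons. The genes were taken by their symbols out of 54532 gene identifiers in the count table, of which 37048 had at least 1 read, and all 10 had reads in every library. The cells were primary hippocampal neurons of newborn C57BL/6N mice, grown in B27 medium with rat serum, exposed to AraC against dividing cells and treated, per the labels, on day 10 or 11 in vitro. Poly(A) RNA of 45 libraries was sequenced, 1 for each condition from each of 5 culture preparations numbered 1, 3, 6, 7 and 8.

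Action potential (AP) firing was driven with bicuculline (Bic, 50 µM), which blocks the GABA-A receptors that normally hold the network back. Untreated control cells were set beside cells after 0.5 h, 1 h and 2 h of Bic. In the short protocol (SP), 0.5 h of Bic was followed by 0.5 h in which the sodium channel blocker TTX (1 µM) alone, or TTX with NMDA (30 µM), was present. The long protocol (LP) had an intervention of 1 h, which started 1 h after Bic and used the same 2 additions or, in a further arm without TTX, the glutamate uptake inhibitor TBOA (50 µM). The passive effect is TTX against Bic of the same total duration, the active effect TTX/NMDA against TTX, the total effect TTX/NMDA against Bic, and glutamate spillover TBOA against 2 h Bic. The cultures are a mixture of cell types from animals that were not treated, NMDA in the bath reaches every cell, and no inhibitor was applied without preceding Bic.

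A neuropeptide is made as a longer precursor, packed into dense core vesicles, cut out by prohormone convertases and released during sustained firing to act on G protein-coupled receptors. In the hippocampus, Sst, Npy, Vip and Cck are classical labels of GABAergic interneuron classes, although Cck is also made by excitatory cells. Penk and Pdyn encode the opioid enkephalins and dynorphins. Adcyap1 encodes PACAP, a relative of the peptide VIP, and Crh encodes corticotropin-releasing hormone. Tac1 encodes substance P, and Nts encodes neurotensin.

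Several of these genes are textbook targets of CREB, the factor that binds the cAMP response element (CRE), and the start of each gene was therefore searched for it. RefSeq promoters (build GRCm38.p6, 250 bases before to 50 after the start) matched 8 of the 10 members, all but Penk and Crh, with 2 entries each for Adcyap1 and Pdyn. The palindromic CRE octamer TGACGTCA stood in 1.79% of 32851 promoters of the table and, among the members, in Sst alone, 48 bases before its start. The shorter motif TGACG, searched on both strands and contained in the octamer, stood in 20.8% of all promoters and in those of Sst, Adcyap1, Vip, Cck, Tac1 and Nts. The AP-1 heptamer, TGACTCA or TGAGTCA, stood in 5.2% of all promoters and in that of Nts, 207 bases before its start. None of these letters occurred in the Npy and Pdyn windows. The stretches below carry the motifs nearest to the start, in capitals. The Sst and Tac1 stretches are shortened because GENCODE M21 places them within a first exon.
Sst (chr16:23890875-23890902, minus strand): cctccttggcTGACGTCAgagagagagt
Adcyap1 (chr17:93198897-93199016, plus strand): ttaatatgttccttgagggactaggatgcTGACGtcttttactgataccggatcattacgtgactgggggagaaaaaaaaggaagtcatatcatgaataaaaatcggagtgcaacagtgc
Vip (chr10:5639098-5639217, plus strand): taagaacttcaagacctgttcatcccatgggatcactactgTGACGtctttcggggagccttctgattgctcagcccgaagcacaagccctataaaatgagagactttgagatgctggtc
Cck (chr9:121495695-121495814, minus strand): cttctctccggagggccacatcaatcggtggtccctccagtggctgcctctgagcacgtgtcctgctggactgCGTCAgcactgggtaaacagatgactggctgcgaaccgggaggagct
Tac1 (chr6:7555008-7555032, plus strand): tctacaggctCGTCAcgcctgagat

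The genes lie apart from each other in the genome. In GENCODE M21 on GRCm38, Sst spans chromosome 16, 23889573 to 23890958, with 721 bases of exon, and Penk spans chromosome 4, 4133531 to 4138819, with 1634 bases of exon. Crh lies on chromosome 3 (19693401 to 19695396), Adcyap1 on chromosome 17 (93199017 to 93206537) and Pdyn on chromosome 2 (129686565 to 129699844). Npy and Tac1 are both on chromosome 6 (49822710 to 49829507 and 7554879 to 7565834), and Vip and Nts both on chromosome 10 (5639218 to 5647617 and 102481756 to 102490486). Cck lies on chromosome 9 (121489824 to 121495694). An annotated antisense gene, A830012C17Rik, overlaps Penk alone, and the libraries were strand-specific.

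Libraries held between 11316580 (a control) and 81129276 (an LP TBOA library) counts, and levels are given as counts scaled to library size (CPM) with TMM factors. The deviation of each library from its condition median was compared, over 13601 genes, with the median deviation of each preparation in the other conditions. For 43 of the 45 libraries it was most like that of the same preparation, with r from 0.29 to 0.79. The 2 others, the SP TTX and LP TBOA libraries labelled preparation 6, had r of 0.12 and −0.21 with that preparation. The members showed it: the LP TBOA library had 27.9 CPM of Npy while the other 7 conditions of preparation 6 (these 2 libraries left out) had 61.4 to 107 CPM, and the SP TTX library had 3.70 CPM of Vip while those 7 had 8.58 to 18.4 CPM. The LP TBOA library also had the highest Pdyn of all 45, 5.63 CPM against 1.44 to 2.27 CPM in those 7. SP passive and active effects and LP spillover are therefore given with and without them.

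The labelled cell type was borne out by its markers. Excitatory markers summed to 2004 to 2987 CPM in the controls, 8 genes together with Camk2a and Slc17a7 the most abundant, and 14 GABAergic markers summed to 1776 to 2441 CPM. Astrocyte markers were present too, at 916 to 1174 CPM over 6 genes in the controls, while 5 microglial markers summed to 5.08 to 6.42 CPM. The endothelial marker Cldn5 was at 0 in 27 of the 45 libraries. In such bulk samples, fewer cells of a type and less RNA per cell cannot be told apart.

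Somatostatin mRNA was by far the most abundant of the precursors. Per kilobase of exon and averaged over the 45 libraries, Sst had 495 CPM per kb, followed by Cck (79.2) and Npy (69.9). Nts (14.9) and Tac1 (12.1) came next, then Penk (6.09), Adcyap1 (5.58) and Vip (2.85), and Crh (0.967) and Pdyn (0.893) were lowest. Over the 5 control libraries the ranges per kb overlapped between Cck and Npy, Nts and Tac1, Crh and Pdyn, and each pair among Penk, Adcyap1 and Vip, so the order within these pairs was not settled. The lowest raw counts behind a value were 8 reads of Crh and 12 of Pdyn, and the highest were 30061 reads of Sst.

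**Figure D1:**
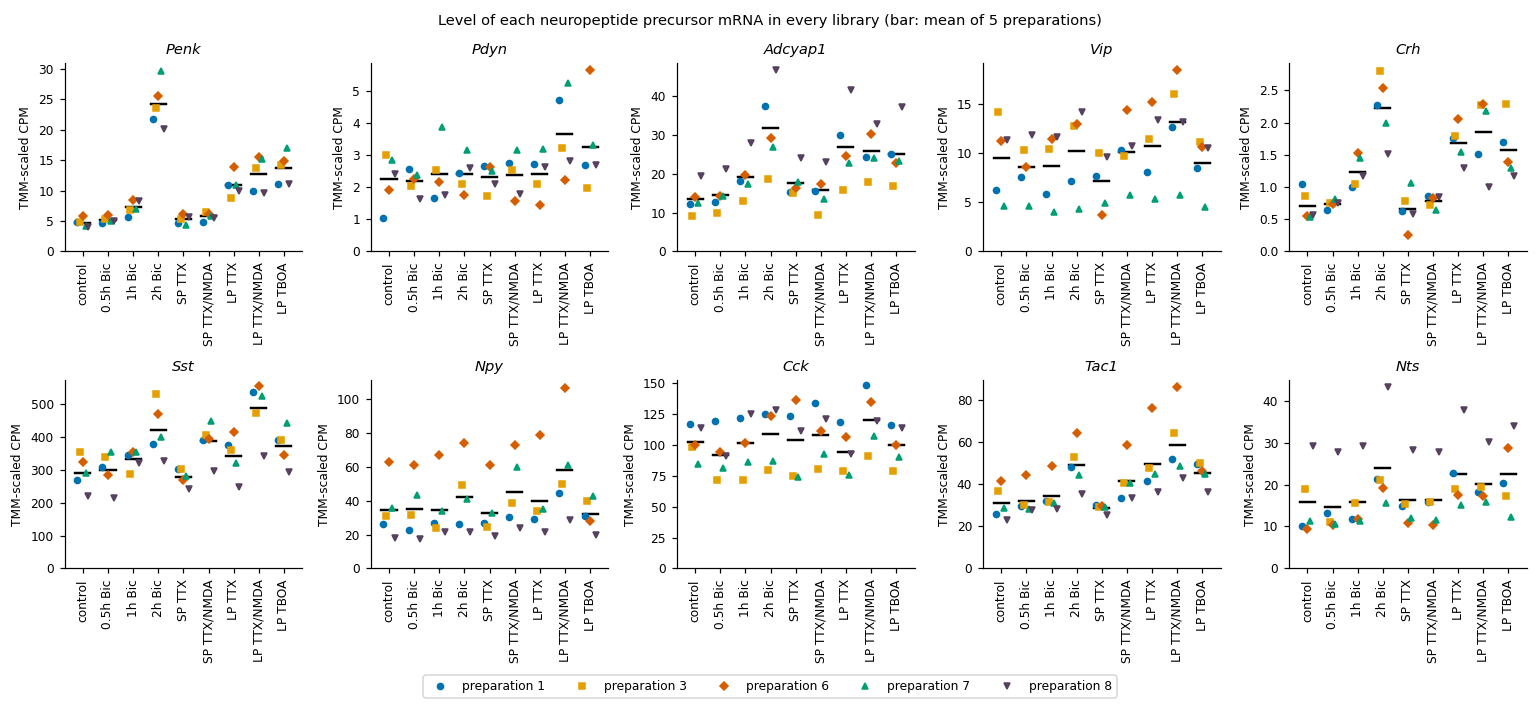
TMM-scaled CPM (vertical axes, from 0) of each precursor in the 9 conditions; points are single libraries, coloured by culture preparation, and bars are means of 5. After 2 h Bic, Penk lies above every library of the other conditions. Crh then lies above all controls but overlaps 1 h Bic and the LP interventions. Npy is highest in preparation 6 in all conditions but LP TBOA, and Nts highest in preparation 8 in all 9.

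For 4 members the culture preparation mattered more than the treatment. The sum of squares of log2(CPM + 0.5) over the 45 libraries went with preparation by 71.7% for Npy, 71.6% for Cck, 65.9% for Vip and 65.1% for Nts, and with condition by 14.4% to 22.9% for these genes. The mean level of Npy was 68.2 CPM in preparation 6 and 21.3 CPM in preparation 8, a 3.21-fold range. Nts had 31.9 CPM in preparation 8 and 12.84 to 17.01 CPM in the other 4. Vip was 2.43 times as high in preparation 6 as in preparation 7, and Adcyap1 2.19 times as high in preparation 8 as in preparation 3. Penk and Crh were at the other end, with 93.2% and 78.3% of the sum of squares on condition and 3.17% and 4.63% on preparation. Sst (56.6%), Tac1 (58.8%) and Adcyap1 (54.9%) also went mostly with condition, and for Pdyn 55.5% went with neither. The range between preparations is wide enough to hide modest effects in a fit that ignores it, so each call below is given from the edgeR fit of the 2 conditions without preparation and, where it differs, from the paired fit with the preparation as a block.

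**Figure D2:**
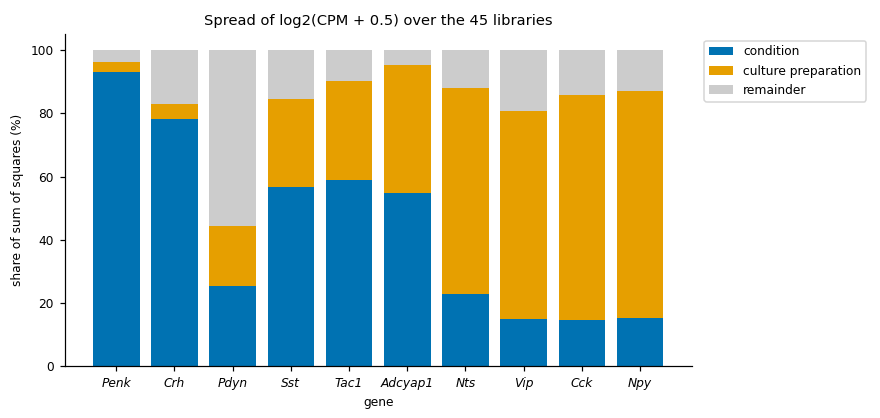
Share (%) of the spread of each precursor over the 45 libraries that went with condition (blue), culture preparation (orange) or neither (grey). Preparation holds 65.1% to 71.7% for Npy, Cck, Vip and Nts and 3.17% for Penk.

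**Figure D3:**
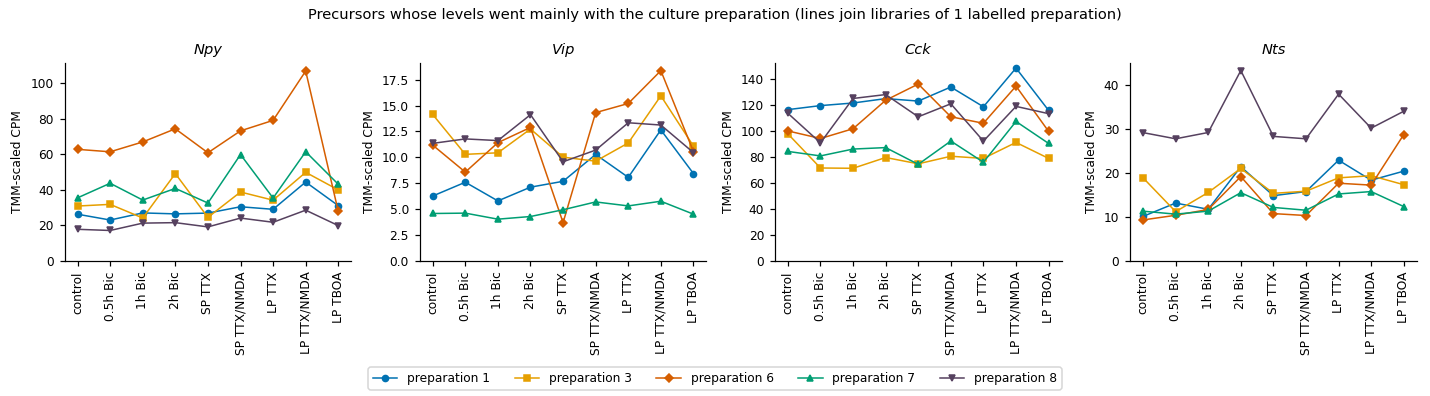
TMM-scaled CPM of the 4 precursors that followed the culture preparation, with lines joining the libraries of 1 labelled preparation through the 9 conditions. Preparation 6 leads for Npy and preparation 8 for Nts, and the labelled preparation 6 drops out of its line at LP TBOA for Npy (27.9 CPM) and at SP TTX for Vip (3.70 CPM).

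The first comparison asks which precursors respond to AP firing. Bic raised precursor mRNAs late, and proenkephalin led. After 0.5 h no member changed (0 of 10 by edgeR, at an unadjusted p under 0.05 and by DESeq2, with 0.289% of all genes tested changed, or 0 of 10 and 0.541% in the paired fit). After 1 h Penk alone rose (1 of 10, against 1.16% of all genes), and the paired fit added Adcyap1 and Crh (3 of 10, against 4.07%). After 2 h Penk, Crh, Adcyap1, Tac1 and Sst had risen (5 of 10, against 9.02% of all genes changed in either direction), with Npy and Nts added in the paired fit (7 of 10, against 29.3%). No member fell at any time. The median log2 fold change at 2 h was 0.56 over the 10 members and −0.01 over all genes tested.

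Penk, the source of the enkephalins, had 4.79, 4.76, 5.76, 4.16 and 4.01 CPM in the control libraries of preparations 1, 3, 6, 7 and 8, an order kept for all lists of 5 values below. It had 5.74, 6.80, 8.49, 7.03 and 8.22 CPM after 1 h Bic and 21.8, 23.6, 25.5, 29.7 and 20.1 CPM after 2 h. At 2 h the lowest Bic library was thus several times above the highest control. The log2 fold change was 0.63 ± 0.14 (SE) at 1 h (adjusted p = 0.0053, edgeR with Benjamini-Hochberg adjustment, as throughout) and 2.35 ± 0.12 at 2 h (adjusted p = 1.7e-17), a 5.11-fold rise. Most of it came late, since the step from 1 h to 2 h alone was 1.72 ± 0.11 (adjusted p = 2.8e-14), and that from 0.5 h to 1 h was 0.48 ± 0.13 (adjusted p = 0.0665, and 0.0133 in the paired fit).

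Crh, a stress hormone precursor that is rare here, showed the next steepest rise. Its control libraries had 1.05, 0.861, 0.549, 0.540 and 0.573 CPM, and those after 2 h Bic 2.281, 2.799, 2.542, 1.999 and 1.519 CPM. All 5 Bic libraries lay above all 5 controls, with a log2 fold change of 1.73 ± 0.23 (adjusted p = 7.3e-07). At 1 h it was 0.91 ± 0.25 (adjusted p = 0.071, and 0.045 in the paired fit).

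Adcyap1 encodes the neurotrophic peptide PACAP. Its levels were 12.19, 9.016, 13.96, 12.44 and 19.26 CPM in controls and 37.2, 18.5, 29.2, 26.9 and 46.5 CPM after 2 h Bic. The groups overlapped slightly, because preparation 8 was high and preparation 3 low in both, but each preparation rose, by 105.6% to 205.5%. The log2 fold change was 0.51 ± 0.15 at 1 h (adjusted p = 0.0851, and 0.00014 in the paired fit, where preparations rose by 39.9% to 48.5%) and 1.23 ± 0.16 at 2 h (adjusted p = 6.1e-07). Vip, whose peptide shares receptors with PACAP and whose promoter carries the same TGACG motif, had a log2 fold change of 0.10 ± 0.23 at 2 h (adjusted p = 0.842).

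Tac1 and Sst rose less and were not called before the second hour. Tac1 went from 25.9, 36.8, 41.5, 28.6 and 23.2 CPM in controls to 48.1, 53.1, 64.6, 44.4 and 35.3 CPM, a log2 fold change of 0.64 ± 0.13 (adjusted p = 0.00048). Sst went from 268, 354, 323, 292 and 221 CPM to 379, 532, 471, 400 and 326 CPM, a log2 fold change of 0.52 ± 0.11 (adjusted p = 0.00079). Both were higher in 5 of 5 preparations although the groups overlapped, and within preparations the rise of Sst had a narrow range, from 37.1% to 50.2%. At 1 h their log2 fold changes were 0.13 ± 0.13 and 0.18 ± 0.09 (adjusted p = 0.702 and 0.658). Beside Sst, 5 of 14 GABAergic markers rose at 2 h and their sum went from 2155 ± 276 to 2600 ± 292 CPM (SD, n = 5); their part in the result was not tested.

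Of the remaining members, Nts had a log2 fold change of 0.60 ± 0.22 at 2 h (adjusted p = 0.086, and 0.00142 in the paired fit) and was higher in 5 of 5 preparations. Npy had 0.27 ± 0.23 (adjusted p = 0.513, and 0.0174 in the paired fit). Pdyn, the other opioid precursor, stayed near its control level of 2.24 ± 0.79 CPM, with 2.41 ± 0.53 CPM at 2 h and a log2 fold change of 0.03 ± 0.20 (adjusted p = 0.976), and Cck had 0.08 ± 0.11 (adjusted p = 0.727). Between 0.5 h and 1 h, 0 of 10 members changed by edgeR without the block (0.677% of all genes), 3 had an unadjusted p under 0.05, DESeq2 called 1, and 2, Penk and Adcyap1, rose in the paired fit (1.93%). Between 1 h and 2 h the same 5 members rose as at 2 h against control (5 of 10, against 5.33% of genes), and 8 in the paired fit, which added Npy, Vip and Nts (23.5%). Without preparation 3, the calls of Sst and Crh in that step were lost (adjusted p = 0.191 and 0.0632). That of Adcyap1 was lost with DESeq2 (0.0858) or filterByExpr (0.0541), that of Sst with filterByExpr (0.0523) or all 45 libraries in the fit (0.133), and that of Tac1 with all 45 libraries (0.0582).

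**Figure D4:**
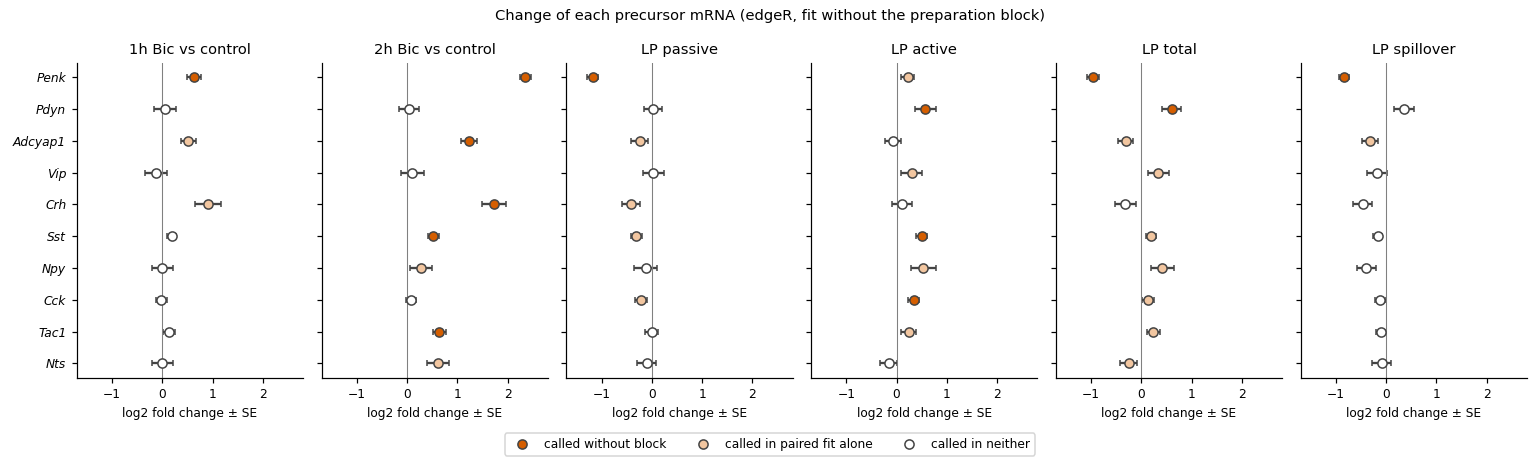
Log2 fold change with its standard error of each precursor in 6 comparisons, from the edgeR fit without the preparation block; dark points were called in that fit, pale points in the paired fit alone and open points in neither. Penk rises by 2.35 after 2 h Bic and is lower than at 2 h Bic with TTX, TTX/NMDA and TBOA, while Sst, Cck and Pdyn rise with NMDA.

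The passive effect asks what is lost when firing is stopped midway. Stopping AP firing with TTX for the last hour of the LP brought down Penk alone (1 of 10 members, against 4.65% of all genes), and the paired fit added Sst, Adcyap1, Cck and Crh, all lower (5 of 10, against 32%). Penk had 11.0, 8.74, 13.8, 10.9 and 9.90 CPM with TTX, every library below every 2 h Bic library. The log2 fold change was −1.18 ± 0.11 (adjusted p = 1.5e-09), and the change within preparations was −63.4% to −45.9%. All 5 were above all 5 libraries taken after 1 h of Bic (7.26 ± 1.12 CPM, SD, n = 5), the time at which TTX was added.

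Crh had a log2 fold change of −0.42 ± 0.18 (adjusted p = 0.224, and 0.0167 in the paired fit) and Adcyap1 of −0.25 ± 0.17 (adjusted p = 0.533, and 0.00045 in the paired fit), each lower in 5 of 5 preparations. Adcyap1 changed by −19.5% to −10.7% within preparations, a narrow range next to its spread between them. Sst had −0.31 ± 0.10 (adjusted p = 0.0835, and 0.00037 in the paired fit). Tac1, which had risen with Bic as Sst had, showed −0.01 ± 0.13 (adjusted p = 0.982), and its TTX libraries had 41.8, 47.9, 76.1, 45.1 and 36.6 CPM.

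In the SP, TTX changed 0 of 10 members by edgeR (0.268% of all genes), with 4 at an unadjusted p under 0.05 and 0 by DESeq2, and the paired fit called Penk lower (1 of 10, against 0.489%). The log2 fold change of Penk was −0.46 ± 0.13 (adjusted p = 0.168, and 0.0263 in the paired fit), and without the doubtful SP TTX library it was −0.53 (adjusted p = 0.0726). Crh had −1.06 ± 0.27 (adjusted p = 0.0945), and −0.78 without that library (adjusted p = 0.455), which had the lowest Crh of all 45 libraries at 0.262 CPM. Setting the LP passive effect against that of the SP, Penk alone differed (1 of 10, against 0.256% of all genes, and 2.01% in the paired fit), with a difference of −0.72 ± 0.17 on the log2 scale (adjusted p = 0.046). That call was lost without the doubtful library (−0.65, adjusted p = 0.138) and without preparation 1, 3 or 7 (adjusted p = 0.118, 0.245 and 0.143), and with filterByExpr or all 45 libraries in the fit (0.0794 and 0.0937).

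The active effect asks what NMDA does beyond stopping AP firing. Every member called after NMDA was added to TTX had risen. In the LP, Sst, Cck and Pdyn rose (3 of 10, against 23.3% of all genes), and the paired fit added Npy, Penk, Vip and Tac1 (7 of 10, against 62.1%). These shares were near those of all genes, of which 3807 rose and 3861 fell without the block. The median over members was 0.27 on the log2 scale, beside 0.11 over all 32852 genes tested and −0.01 over 13592 genes of at least 1 CPM.

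Sst had 374, 359, 415, 320 and 247 CPM with TTX and 537, 472, 556, 525 and 342 CPM with TTX/NMDA. It was higher in 5 of 5 preparations, by 31.5% to 64.2%, with a log2 fold change of 0.50 ± 0.11 (adjusted p = 0.0009). Cck had 119, 79.0, 106, 76.0 and 92.3 CPM with TTX and 149, 91.3, 135, 107 and 119 CPM with NMDA (0.34 ± 0.11, adjusted p = 0.0212). The Cck groups overlapped between preparations, but each preparation rose, by 15.6% to 41.3%, and the call was lost with DESeq2 or all 45 libraries in the fit (adjusted p = 0.0602 and 0.0941). Pdyn had 2.70, 2.09, 1.44, 3.19 and 2.63 CPM and then 4.70, 3.22, 2.23, 5.23 and 2.82 CPM (0.57 ± 0.20, adjusted p = 0.0381). The Pdyn call rested on few reads and was lost without preparation 1 or preparation 3 or with filterByExpr (adjusted p = 0.146, 0.0674 and 0.0519). Of the 9 conditions, TTX/NMDA in the LP had the highest mean of Pdyn, 3.64 ± 1.27 CPM (SD, n = 5).

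Npy had 29.1, 34.2, 79.1, 35.4 and 21.8 CPM with TTX and 44.4, 49.9, 107, 61.5 and 28.6 CPM with NMDA. All 5 preparations rose, by 31.3% to 73.6%, but the libraries of preparation 6 stood so far above the rest that the fit without the block gave 0.53 ± 0.25 and no call (adjusted p = 0.131, and 1.9e-07 in the paired fit). Tac1 (0.24 ± 0.15, adjusted p = 0.283, and 0.00012 in the paired fit) and Vip (0.30 ± 0.21, adjusted p = 0.354, and 0.00346 in the paired fit) were likewise called in the paired fit alone, with 5 and 4 of 5 preparations higher. Adcyap1, Crh and Nts, which had risen with Bic, had −0.07 ± 0.17, 0.11 ± 0.21 and −0.16 ± 0.17 (adjusted p = 0.786, 0.746 and 0.532). Penk had 9.93, 13.6, 15.6, 15.2 and 9.55 CPM and was higher in 3 of 5 preparations (0.22 ± 0.13, adjusted p = 0.264, and 0.0282 in the paired fit).

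Cell type markers moved with the active effect. In the LP, 8 of 14 GABAergic markers rose and none fell, and their sum went from 2180 to 2998 CPM with TTX to 2377 to 3312 CPM with NMDA. All 8 excitatory markers fell, from 2441 to 2946 CPM in sum to 1194 to 1674 CPM. Of the astrocyte markers 5 of 6 rose and 1, the transporter Slc1a2, fell, with sums of 944 to 1398 and 1056 to 1843 CPM. Oligodendrocyte lineage markers rose in 4 of 6 (99.0 to 166 CPM, then 156 to 309 CPM), endothelial and meningeal markers in 3 of 5 (54.3 to 97.3, then 66.4 to 138 CPM) and microglial markers in 1 of 5 (5.22 to 7.25, then 6.04 to 8.40 CPM). The log2 fold change of Sst (0.50) lay within the range of the GABAergic markers, whose median was 0.34. So did those of all other members but Adcyap1 and Nts. Dlx5 (1.10 ± 0.11), Dlx2 (0.70 ± 0.11) and Dlx6 (0.62 ± 0.10) rose most, whereas Gad1 (0.21 ± 0.09), Gad2 (0.10 ± 0.10), Reln (0.10 ± 0.07) and Calb2 (−0.04 ± 0.08) were not called. Dlx5 and Dlx2 also changed without NMDA. They rose after 1 h Bic (0.79 ± 0.12 and 0.68 ± 0.11) and fell with TTX in the SP (−0.56 ± 0.12 and −0.41 ± 0.10). The part of these shifts in the rise of the members was not tested.

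**Figure D5:**
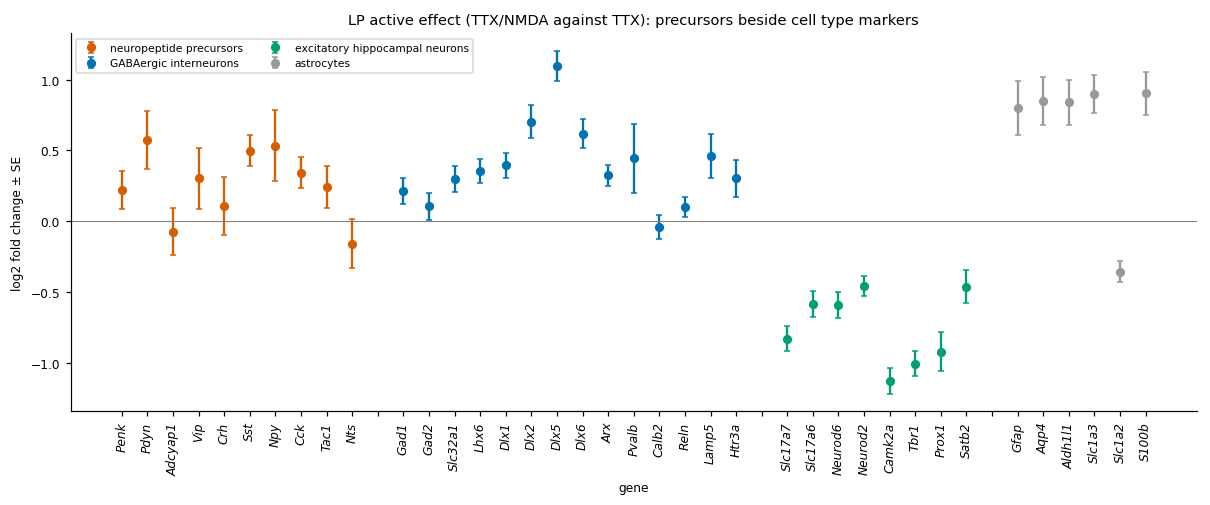
Log2 fold change with its standard error for TTX/NMDA against TTX in the LP, for the 10 precursors (orange), GABAergic markers (blue), excitatory markers (green) and astrocyte markers (grey). All precursors but Adcyap1 and Nts lie within the range of the GABAergic markers, while all 8 excitatory markers lie below 0.

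In the SP, Sst and Tac1 rose with NMDA (2 of 10, against 4.28% of all genes) and the paired fit added Npy (3 of 10, against 16.2%). Sst had 302, 303, 269, 280 and 243 CPM with TTX and 391, 405, 392, 450 and 296 CPM with TTX/NMDA (0.46 ± 0.08, adjusted p = 0.0003). Tac1 had 30.0, 29.2, 29.6, 29.4 and 25.6 CPM and then 33.7, 40.7, 58.5, 40.7 and 33.4 CPM (0.52 ± 0.10, adjusted p = 0.00108), with no overlap. Preparation 6 gave the largest rise of Tac1, and its TTX library is one of the doubtful pair. Without that library both calls held (Sst 0.45, adjusted p = 0.00031, and Tac1 0.53, adjusted p = 0.0007), Tac1 missed the threshold with all 45 libraries in the fit (adjusted p = 0.058), and Npy was called as well (0.81, adjusted p = 0.00156). That omission keeps the TTX/NMDA library of preparation 6, the highest for Npy at 73.2 CPM, without its TTX partner, which raises the Npy value. The paired fit of all 5 preparations gave 0.47 for Npy. With preparation 6 left out of each group, the unpaired fit called Npy too (adjusted p = 0.00492). In a paired fit without preparation 6, the rise of Tac1 was 0.37 (adjusted p = 0.0006) and Cck was added (0.16, adjusted p = 0.0263). GABAergic markers rose in 6 of 14 and excitatory markers fell in 6 of 8. The active effect differed between the protocols for 0 of 10 members by edgeR, at an unadjusted p under 0.05 and by DESeq2 (2.57% of all genes) and in the paired fit for Pdyn and Cck (2 of 10, against 25%), larger in the LP by 0.64 and 0.28 on the log2 scale (adjusted p = 0.0392 and 0.0336). Without the doubtful library the unpaired differences were 0.52 and 0.20 (adjusted p = 0.484 and 0.781).

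The total effect compares TTX/NMDA with uninterrupted Bic. In the LP, Penk fell and Pdyn rose (2 of 10, a share near the 22.8% of all genes). Penk fell by 0.95 on the log2 scale (SE 0.12, adjusted p = 1.2e-07), and changed by −54.5% to −38.9% within preparations. Pdyn rose by 0.60 ± 0.19 (adjusted p = 0.0196), in 5 of 5 preparations, a call lost without preparation 1 (0.51, adjusted p = 0.096). In the same comparison 7 of 14 GABAergic and 5 of 6 astrocyte markers rose and 7 of 8 excitatory markers fell; their part in the result was not tested. The paired fit called 9 of 10 members (against 56.6%): Sst, Npy, Pdyn, Vip, Cck and Tac1 higher and Penk, Adcyap1 and Nts lower. In the SP against 1 h Bic, 0 of 10 changed by edgeR (4.3% of all genes), 4 had an unadjusted p under 0.05 and DESeq2 called 2, Penk and Crh. The paired fit (6 of 10, against 27.3%) called Sst, Npy and Tac1 higher and Penk, Adcyap1 and Crh lower. It also called 7 of 14 GABAergic markers higher and, of 8 excitatory markers, 6 lower and 1 higher. The part of these markers in the SP result was not tested. By the paired fit, Penk and Adcyap1 were lower and Sst, Npy and Tac1 higher in both protocols.

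Glutamate spillover asks what a milder glutamate load does to ongoing firing. TBOA lowered Penk alone (1 of 10, against 0.602% of all genes), and the paired fit added Adcyap1 (2 of 10, against 2.67%). Penk had 11.1, 14.2, 14.89, 16.99 and 11.1 CPM, all below the 2 h Bic libraries, and changed by −49.03% to −39.97% within preparations (−0.84 ± 0.11, adjusted p = 8.2e-06). Without the doubtful LP TBOA library the value was −0.86 (adjusted p = 3.3e-06). Adcyap1 had −0.32 ± 0.16 (adjusted p = 0.626, and 0.0206 in the paired fit), and in the paired fit without preparation 6 it had −0.33 (adjusted p = 0.00201) with Nts added at −0.25 (adjusted p = 0.00817). No GABAergic marker was called and 1 of 8 excitatory markers, Tbr1, fell. The passive, total and spillover comparisons share the 2 h Bic libraries, in which Penk was highest.

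Against untreated cells, several precursors were still higher at the end of the LP. With TTX, Penk, Crh, Adcyap1 and Tac1 were higher (4 of 10, against 6.75% of all genes), with log2 fold changes of 1.19 ± 0.13, 1.31 ± 0.23, 0.99 ± 0.16 and 0.64 ± 0.14 (adjusted p = 1.3e-08, 0.0001, 3.5e-05 and 0.00132). Sst and Nts were added in the paired fit (6 of 10, against 24.1%). With TTX/NMDA, 7 of 10 were higher (against 19.5% of all genes), and all 10 in the paired fit (against 47.2%). Penk (1.43 ± 0.15), Crh (1.43 ± 0.26), Adcyap1 (0.94 ± 0.14) and Tac1 (0.90 ± 0.14) led, followed by Sst (0.73 ± 0.11), Npy (0.72 ± 0.22) and Pdyn (0.65 ± 0.21, and 0.41 with adjusted p = 0.228 without preparation 1). The Npy call was lost with filterByExpr, DESeq2 or all 45 libraries in the fit (adjusted p = 0.101, 0.198 and 0.138), and that of Pdyn with filterByExpr (0.0531). Cell type markers differed too: with TTX/NMDA against control, 12 of 14 GABAergic markers were higher (median log2 fold change 0.47), as were 5 of 6 astrocyte markers, and 5 of 8 excitatory markers were lower. Their part in the result was not tested. Both comparisons use the same control libraries as the Bic series.

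Of 14 genes for peptide processing and release, 3 rose at 2 h of Bic (against 9.02% of all genes called) and none fell, led by the convertase Pcsk1 (73.3 ± 14.2 to 225 ± 22.5 CPM, a log2 fold change of 1.603 ± 0.10, adjusted p = 1.1e-14) and the granin Scg2 (1.36 ± 0.08). The active effect in the LP lowered 7 of the 14 and raised none (against 23.3% of all genes called). Pcsk1 fell from 259 ± 32.3 CPM with TTX to 80.6 ± 14.9 CPM with NMDA (−1.696 ± 0.10, adjusted p = 1.5e-13), and the carboxypeptidase Cpd (−1.15 ± 0.09) and Scg2 (−0.69 ± 0.08) fell too. Against control, TTX/NMDA raised 2 and lowered 3 of the 14: Scg2 was still higher (0.53 ± 0.09, adjusted p = 3.1e-05), and Cpd was lower (−0.81 ± 0.10, adjusted p = 4.6e-08).

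Of 24 peptide receptors, 2 rose and 3 fell at 2 h of Bic (against 9.02% of all genes called). The receptors that rose were Sstr1 (1.599 ± 0.11, adjusted p = 3.4e-13) and Sstr2 (1.13 ± 0.12, adjusted p = 7.9e-09), and Sstr3 fell by 0.85 (adjusted p = 3.7e-06). With NMDA, 8 of 24 fell and 1 rose in the LP (against 23.3% of all genes called), and those that fell included Sstr3 (−1.27 ± 0.12), Sstr1 (−1.21 ± 0.12), the neurokinin receptor Tacr3 (−1.19 ± 0.15) and Sstr4 (−1.10 ± 0.20). Sst and these receptors for its peptide therefore moved in opposite directions with NMDA. In the same comparison all 8 excitatory markers fell and 8 of 14 GABAergic markers rose. The part of these marker shifts in the receptor result was not tested.

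A list of 46 other peptide precursor and related genes, 41 of them with a read in the control and 2 h Bic libraries, gave 7 that rose and none that fell at 2 h (against 9.02% of all genes called). Vgf rose from 454 ± 85.1 to 1015 ± 144 CPM (1.15 ± 0.11, adjusted p = 3.5e-10), and Cartpt (1.69 ± 0.24), Prok2 (0.70 ± 0.18) and the nociceptin precursor Pnoc (0.66 ± 0.12) rose as well. The LP active effect raised 8 and lowered 2 of 43, a share near the 23.3% of all genes called. The 4 named by size, Npff, Edn1, Ucn2 and Gnrh1, rose by 1.67 to 2.37 on the log2 scale from levels of 0.0564 to 0.137 CPM, a few reads a library.

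The genes most like each member over the 45 libraries were found by the Pearson r of log2(CPM + 0.5), as a description of libraries that share preparations and treatments. Penk was nearest to Tnfaip6 (r = 0.95), 1190002N15Rik (0.93) and Adamts8 (0.93), and Crh to Adamts8 (0.87), Ephb3 (0.87) and Fgfbp3 (0.87). The interneuron transcription factor genes Lhx6 (0.86) and Npas1 (0.86) were among the genes most like Sst. Adcyap1 was nearest to the somatostatin receptor gene Sstr2 (0.86), and Tac1 to Gfpt2 (0.91). Nts was nearest to 2 chaperones of the endoplasmic reticulum, Hspa5 (0.93) and P4hb (0.86), and Cck to another peptide precursor, Grp (0.81). Npy was nearest to Myh8 (0.89), Vip to Pck2 (0.85) and Pdyn to Sdc4 (0.83). With the mean of each preparation removed first, 5 of the 30 neighbours (3 a member) remained, among them Tnfaip6 and Adamts8 for Penk and Hspa5 for Nts (0.86), while Slc32a1 (0.91), the vesicular GABA transporter gene, became the nearest to Sst.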

How the data were processed

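Poly(A) RNA of 45 libraries (9 conditions, 5 culture preparations) was sequenced by the authors as single reads of 75 cycles from strand-specific libraries. The deposited values are raw read counts per gene. Per the submitters' processing notes, bcl2fastq 2.20.0.422, STAR 2.5.4b and featureCounts 1.6.5 were used with GRCm38 and Ensembl 94. Conditions and preparations came from the labels.

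The unpaired test was the quasi-likelihood test of edgeR 4.0.16 (R 4.3.3, limma 3.58.1) with TMM scaling, on genes with at least 1 read in the libraries compared, as 14 comparisons of 2 conditions and 2 differences between protocols. Calls were made at a Benjamini-Hochberg adjusted p under 0.05 over all genes tested. The paired fit had the preparation as a block on genes kept by filterByExpr. A field of the labels gives each library's culture preparation by number, so the number pairs the libraries. Deviations from the condition means of same-numbered libraries had mean r of 0.369 to 0.562 per comparison and exceeded 0.1 in every preparation in 10 of 14, the exceptions being preparation 3 at 0.5 h Bic (0.04) and preparation 6 for SP passive (0.077), SP active (−0.01) and LP spillover (−0.213). Alternatives were DESeq2 1.42.0, its size factors, filterByExpr, a fit of all 45 libraries and leaving out each preparation. Leaving out the 2 libraries that did not go with preparation 6 was chosen after seeing the data. Scripts were tested on data simulated after LP active and 2 h Bic against control. The unpaired fit recovered 55% and 61.3% of changes of 0.5 on the log2 scale, with 0% of calls false. The paired fit recovered 83.8% and 82.5% of them, with 2.11% and 7.5% of calls false.

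All 10 members are described. From other lists, up to 4 genes per comparison were named, those with the largest log2 fold change among genes called and changed alike in 5 of 5 preparations. For each member the 3 genes with the most similar levels were sought, and 1 of these genes is not reported here. The members, lists and markers were chosen with earlier results of these data known. Libraries held 11316580 to 81129276 counts, and precision for rare genes such as Crh is limited by reads.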

Additional observations from a re-analysis of the deposited data

Results flagged for a closer look

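In 11 of 90 groups of 5 libraries (10 members in 9 conditions), the highest or lowest library stood apart from the other 4 by Dixon's criterion, which chance gives in about 1 of 20 groups. Neighbouring conditions share preparations, so these are not independent. In preparation 6, Npy stood high at 66.98 CPM after 1 h Bic and 79.13 CPM with LP TTX. Tac1 of the same preparation stood high at 44.23 CPM after 0.5 h Bic, 48.62 CPM after 1 h and 76.13 CPM with LP TTX. The other 6 were in preparation 8. Nts stood high there at 27.7, 29.13 and 43.18 CPM after 0.5 h, 1 h and 2 h of Bic, at 28.24 CPM with SP TTX and at 30.12 CPM with LP TTX/NMDA, and Tac1 stood low at 25.62 CPM with SP TTX.

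The passive effect on Penk differed between the protocols by −0.7185 on the log2 scale (edgeR interaction contrast, adjusted p = 0.046, and 0.00901 in the paired fit), being larger in the LP. The doses of TTX were equal, but the Bic exposure before it was 0.5 h in the SP and 1 h in the LP, so protocol duration and level at the time of TTX cannot be told apart.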

How the results depend on the processing

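In the paired fit (replicate block with filterByExpr) the members called were 3 at 1 h Bic, 2 from 0.5 h to 1 h, 8 from 1 h to 2 h, 1 for SP passive, 6 for SP total, 5 for LP passive, 7 for LP active, 9 for LP total, 2 for spillover and 2 for the difference of active effects. This fit, which changes both the block and the gene filter, called 40 of 75 single results that were not called before and lost none, while filterByExpr alone added 1 and lost 6. Paired without preparation 6, SP passive had 1, SP active 4 and spillover 3. DESeq2 gave 1 from 0.5 h to 1 h and 2 for SP total. With filterByExpr alone there were 3 from 1 h to 2 h, 1 for SP total and 0 for the difference of passive effects. The fit of all 45 libraries gave 3 from 1 h to 2 h, 1 for SP passive, 1 for SP active and 0 for the difference of passive effects, which was also 0 without the SP TTX library of preparation 6. Apart from the alternatives' own construction, the cause was not tested.

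Leaving out 1 preparation at a time gave 2 to 4 members at 1 h Bic, 0 to 1 from 0.5 h to 1 h, 4 to 6 from 1 h to 2 h, 0 to 2 for SP passive, 2 to 4 for SP active, 0 to 3 for SP total, 1 to 2 for LP passive, 2 to 6 for LP active, 1 to 7 for LP total, 1 to 3 for spillover and 0 to 1 for the difference of passive effects. Preparation 8 moved most of them: without it LP active had 6, LP total 7, LP passive 2, SP active 4, SP total 3 and spillover 3. Without preparation 3 the count was 4 at 1 h Bic, 2 for SP passive and 5 for LP total, without preparation 6 it was 4 for LP total and 2 for LP passive, and without preparation 1 it was 1 for LP total and 2 for LP active. Of 32 calls 26 held in all 5 omissions, and no direction reversed. The number of members whose spread went more with preparation than condition, 4, ranged from 3 to 6. The Penk call for the difference of passive effects was lost in 3 of the 5 omissions, and the Pdyn calls, on 12 to 207 reads a library, in 1 or 2. DESeq2 size factors changed none of 75 single results.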
